A study of Mus musculus with 9 samples.

Results

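The genes examined here make, move and store cholesterol, and were 32 in number of the 53715 gene IDs measured. They were chosen by name: each was the row of the expression table whose symbol equalled that of a listed gene. By role they comprised 8 enzymes of the mevalonate steps, 11 enzymes of the squalene and sterol steps, 4 genes of SREBP2 and its control, 5 genes of lysosomal release, transfer, receptor turnover and esterification, and 4 genes of the LXR receptors and cholesterol export. RNA was sequenced from mouse primary myoblasts, muscle precursor cells taken from tissue and grown in culture, of strain C57BL/10ScSn-Dmdmdx/J at passage 1. All libraries thus shared the mdx mutation, a defect of the dystrophin gene that causes muscular dystrophy in mice, and no group without it was among them. The cells received glycine at 0.2 mM (n = 3 libraries) or at 0.8 mM (n = 6 libraries), and the comparison asks how gene expression differs between these doses of the amino acid. The labels give no duration of the treatment and do not tell whether libraries stand for separate cultures or animals, so p-values measure the spread of these samples alone, and that may be technical. Library numbers follow the glycine dose (a series 1 at 0.2 mM and a series 2 at 0.8 mM), so a batch tied to those series and an effect of glycine cannot be told apart.

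Cholesterol is built from acetyl-CoA through mevalonate and isoprenoid units to squalene, which is closed into a sterol ring and trimmed. When the membrane of the endoplasmic reticulum is poor in cholesterol, SCAP escorts the transcription factor SREBP2 to the Golgi, where it is cut and released, and it then raises the genes of nearly every step; INSIG proteins hold SCAP back when sterols are plentiful. Excess sterol acts the other way through LXR, a nuclear receptor for oxysterols that raises export pumps. Cultured cells also take cholesterol from lipoproteins, release it from the lysosome through NPC2 and NPC1, and store it as esters.

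Promoter sequences are shown because SREBP2 acts through sterol regulatory elements next to sites for NF-Y and Sp1, and because many of these genes moved together in the values that follow. RefSeq promoter windows on GRCm38.p6, from 250 bases before to 50 bases after a transcription start, were matched by symbol for 26 of the 32 genes, of which 5 had more than 1 window. Both strands were searched for TCACNCCA and CACCCCAC, which are forms of the sterol element and overlap each other, for CCAAT (NF-Y), for GGGCGG (Sp1) and for the LXR direct repeat (AGGTCA, 4 bases of any kind, AGGTCA). The 7 windows below are those of the genes with a match to either sterol form (Hmgcs1, Msmo1, Srebf2 and Acat2), of the genes with the largest rises that had a window (Idi1 and Cyp51), and of Abca1, an export gene that fell. Capitals mark TCACNCCA, CACCCCAC and CCAAT or their complements, and each sequence runs 5′ to 3′ on the strand of its gene. Their places are chr13:119690101-119690400 (plus strand), chr8:64733529-64733828 (minus), chr15:82147019-82147318 (plus), chr17:12960676-12960975 (minus), chr13:8885356-8885655 (plus), chr5:4104648-4104947 (minus) and chr4:53159846-53160145 (minus).
Hmgcs1: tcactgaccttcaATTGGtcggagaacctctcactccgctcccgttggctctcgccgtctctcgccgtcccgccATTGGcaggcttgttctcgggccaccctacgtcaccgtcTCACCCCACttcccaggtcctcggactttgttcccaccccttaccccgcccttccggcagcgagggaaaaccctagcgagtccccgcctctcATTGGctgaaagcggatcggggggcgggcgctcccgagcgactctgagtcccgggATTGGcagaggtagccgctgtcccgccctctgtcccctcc
Msmo1: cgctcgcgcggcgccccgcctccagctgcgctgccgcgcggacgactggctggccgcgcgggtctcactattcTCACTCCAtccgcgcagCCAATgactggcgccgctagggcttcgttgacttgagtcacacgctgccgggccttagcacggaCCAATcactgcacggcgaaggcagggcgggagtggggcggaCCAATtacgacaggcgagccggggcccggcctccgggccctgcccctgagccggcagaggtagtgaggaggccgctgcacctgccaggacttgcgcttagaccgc
Srebf2: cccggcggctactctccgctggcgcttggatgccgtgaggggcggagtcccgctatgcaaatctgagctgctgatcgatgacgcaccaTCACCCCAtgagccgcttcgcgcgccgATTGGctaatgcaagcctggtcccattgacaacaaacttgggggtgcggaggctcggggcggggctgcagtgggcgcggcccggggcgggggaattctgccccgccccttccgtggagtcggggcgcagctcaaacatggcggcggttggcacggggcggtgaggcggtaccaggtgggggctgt
Acat2: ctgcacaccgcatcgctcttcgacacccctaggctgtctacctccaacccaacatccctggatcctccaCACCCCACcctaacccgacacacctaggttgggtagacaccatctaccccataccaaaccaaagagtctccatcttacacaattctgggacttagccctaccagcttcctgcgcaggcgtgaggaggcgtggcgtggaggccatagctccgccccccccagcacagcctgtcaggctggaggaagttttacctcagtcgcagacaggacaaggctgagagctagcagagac
Idi1: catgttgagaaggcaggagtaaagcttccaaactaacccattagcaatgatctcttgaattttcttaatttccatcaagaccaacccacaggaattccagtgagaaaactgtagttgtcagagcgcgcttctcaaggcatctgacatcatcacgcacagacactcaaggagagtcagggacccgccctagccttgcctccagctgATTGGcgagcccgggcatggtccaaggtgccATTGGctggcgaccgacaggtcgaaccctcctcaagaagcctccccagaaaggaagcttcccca
Cyp51: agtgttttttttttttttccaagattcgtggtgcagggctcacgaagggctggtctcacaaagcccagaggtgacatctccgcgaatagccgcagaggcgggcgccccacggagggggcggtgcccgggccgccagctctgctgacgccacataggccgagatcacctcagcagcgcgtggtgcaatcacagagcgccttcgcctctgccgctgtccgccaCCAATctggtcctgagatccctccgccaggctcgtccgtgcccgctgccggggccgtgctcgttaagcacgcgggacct
Abca1: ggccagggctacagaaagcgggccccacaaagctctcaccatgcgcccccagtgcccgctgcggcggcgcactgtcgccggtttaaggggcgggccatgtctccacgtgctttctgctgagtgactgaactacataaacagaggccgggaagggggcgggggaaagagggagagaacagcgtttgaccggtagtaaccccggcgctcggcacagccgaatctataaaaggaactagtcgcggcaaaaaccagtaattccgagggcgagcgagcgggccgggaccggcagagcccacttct

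CCAAT was found in 15 of 16 synthesis enzymes (93.8%) and in 6 of 10 of the other members with a window (60.0%), beside 41.1% of the 27025 genes in the promoter table. GGGCGG was found in 14 of the 16 enzymes and 8 of the 10 others, beside 38.2% of all genes. TCACNCCA was found in Hmgcs1, Msmo1 and Srebf2, or 11.5% of the members with a window, beside 4.97% of all genes. CACCCCAC was found in Hmgcs1, where it overlaps the other form, and in Acat2, or 7.69% beside 3.3%. The LXR direct repeat, searched in that exact spelling alone, was found in 0 of the 26 and in 0.0148% of all genes. Sites that differ from it in any letter were not searched for, so its absence does not tell whether a window holds an LXR site. In Hmgcs1 the sterol form TCACNCCA began 137 bases before the start, and the nearest CCAAT matches began 176 and 45 bases before it. In Srebf2 it began 162 bases before the start, with a CCAAT match 135 bases before it. The Abca1 window held no match to either sterol form or to CCAAT. The shares of all genes cover every gene in the promoter table, expressed here or not, whereas all members were expressed. The shares are therefore not like for like, and none was taken among expressed genes alone. Matches are a description of letters in these windows, and binding was not measured.

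At 0.8 mM glycine nearly the whole route from acetyl-CoA to cholesterol was higher, the SREBP2 gene and its feedback gene Insig1 were higher, and genes of lysosomal release, esterification and export were lower. Of the 19 synthesis enzymes 16 rose, 0 fell and 3 did not pass, beside 16.7% of all 10049 genes tested that rose and 9.81% that fell (limma, Benjamini-Hochberg adjusted p under 0.05 on log2(TPM + 1)). Of the other 13 members 4 rose, 5 fell and 4 did not pass. Over all 32 this made 25 calls, beside 26.6% of all genes tested that changed in either direction. Left out in turn, 0.2 mM replicates 1, 2 and 3 reduced the 5 that fell to 2, 3 and 1. The median log2 fold change was 1.22 over the synthesis enzymes, 0.03 over the other members and 0.06 over all genes tested. All calls divided into 1683 upward and 986 downward, which became 1414 and 1274 with median-ratio scaling and 1324 and 1335 with quantile normalization, and under both scalings 16 synthesis enzymes rose and 0 fell. All 32 members passed the filter of at least 1 TPM in at least 3 libraries. For 9 of them the 0.8 mM libraries alone met it, so the filter itself picked them for higher values there. These were Idi1, Sqle, Lss, Cyp51, Tm7sf2, Nsdhl, Hsd17b7, Stard4 and Mylip. With no filter 15 synthesis enzymes rose and 0 fell. Values are TPM, a level per gene length that sums to nearly the same total in each library, and their depth is unknown.

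**Figure D1:**
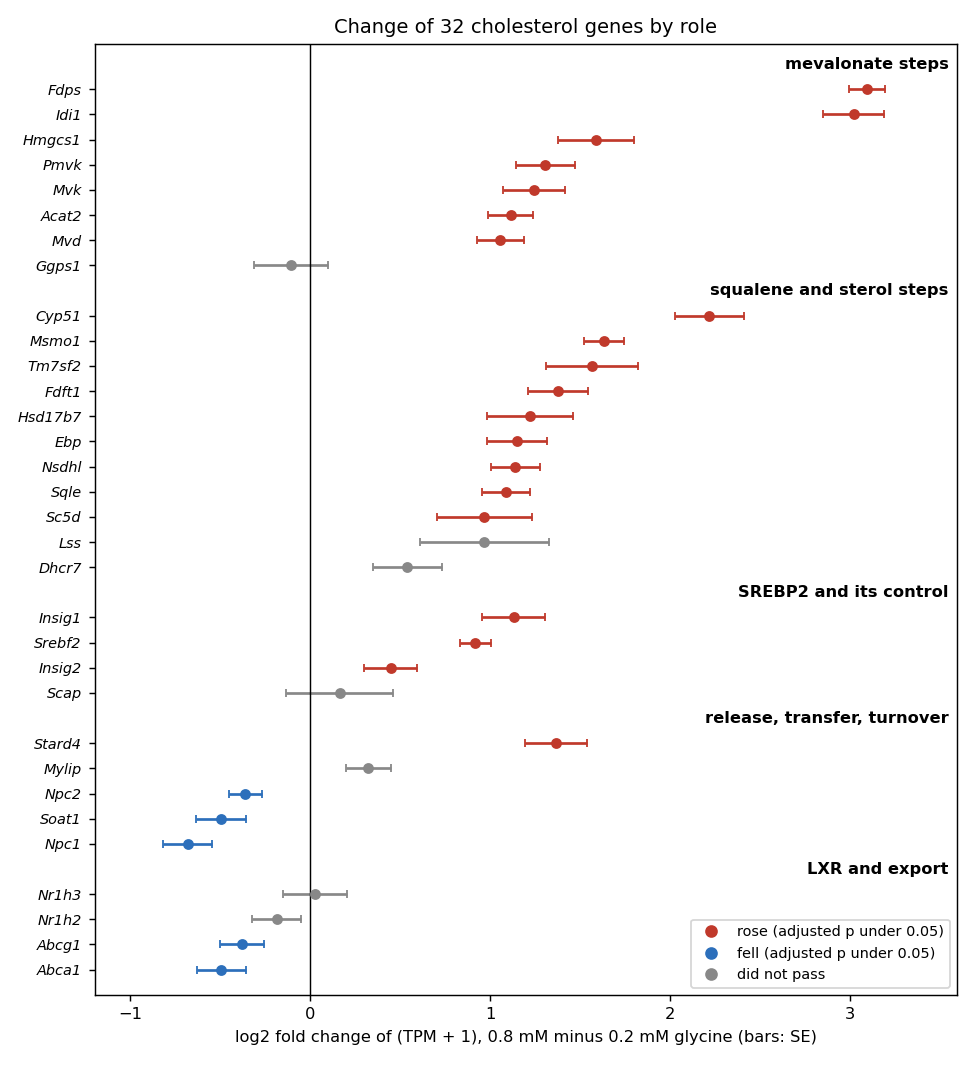
Each point is 1 of the 32 genes, by role; the horizontal axis is its log2 fold change on TPM + 1 (0.8 mM over 0.2 mM), bars are standard errors, and red, blue and grey stand for rose, fell and not passed. The 19 synthesis enzymes, except Ggps1 at -0.11, lie to the right of 0, with Fdps and Idi1 above 3, and the LXR and export genes lie at or left of 0 apart from Nr1h3 at 0.03, whose sign turned with both other scalings.

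The cells' identity was checked by markers. Myoblast markers were present, with Myog at 247 ± 16.9 and 523 ± 41.2 TPM (SD, n = 3 and 6), and the 8 of them summed to between 409 and 482 TPM at 0.2 mM and between 891 and 1110 TPM at 0.8 mM. Of these 8, 6 rose, 0 fell and 2 did not pass, beside 16.7% of all genes tested that rose and 9.81% that fell. The calls of Itga7 (limma adjusted p = 0.115) and Myf5 (0.0516) were lost without 0.2 mM replicate 2, and that of Itga7 also without 0.2 mM replicate 1 (0.0618). Genes at 1 TPM or more numbered 8979 to 9243 per library at 0.2 mM and 9321 to 9457 at 0.8 mM. RNA of other cell types was present too: 10 macrophage markers summed to between 1861 and 2030 TPM at 0.2 mM and between 2057 and 2501 TPM at 0.8 mM, of which 4 rose (Lyz2, Cd14, Itgam and Tyrobp), Cd68 fell and 5 did not pass. The 6 fibro-adipogenic markers summed to between 2129 and 2477 TPM and between 2439 and 2954 TPM, and 4 of them rose. Of 5 adipocyte markers, Fabp4 alone passed the filter and rose, Lep was listed at 0 in all 9 libraries, and the other 3 stayed under 1 TPM. The 5 endothelial markers summed to between 9.20 and 9.92 TPM and between 15.4 and 23.3 TPM, and the 3 tested rose. Pecam1 and Cdh5 among them, and Itgam among the macrophage markers, reached the filter through the 0.8 mM libraries alone. The filter itself thus picked these markers for higher values there. In bulk RNA, fewer cells of a type and less RNA per cell cannot be told apart. The part of myoblast and other cell markers in the results was not tested.

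The mevalonate steps rose from their entry to farnesyl diphosphate. Of their 8 genes 7 rose (87.5%) and 1 did not pass, beside 16.7% of all genes tested that rose and 9.81% that fell. Acat2, a cytosolic thiolase that joins acetyl-CoA units, was at 3.17, 2.58 and 2.83 TPM at 0.2 mM and ran from 6.31 through a median of 7.16 to 9.03 TPM at 0.8 mM. Hmgcs1, which makes HMG-CoA, was at 2.56, 1.304 and 0.842 TPM at 0.2 mM and ran from 4.49 through 6.96 to 7.66 TPM at 0.8 mM. For both genes every 0.8 mM library was above every 0.2 mM library. Acat2 rose by 1.12 ± 0.13 on the log2 scale (SE, limma adjusted p = 7.24e-05) and Hmgcs1 by 1.59 ± 0.21 (limma adjusted p = 2.40e-04). A near-identical copy, Acat3, was at a mean of 7.54 TPM, and the sources used here do not say how reads were divided between it and Acat2.

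The kinases and the decarboxylase that turn mevalonate into isopentenyl diphosphate came next. Mvk, mevalonate kinase, was at 2.25, 1.68 and 1.63 TPM and then between 4.10 and 7.93 TPM, with a median of 5.73. Pmvk, the kinase that adds the next phosphate, was at 3.85, 3.29 and 2.58 TPM and then between 7.24 and 12.9 TPM, with a median of 9.14. Mvd, the decarboxylase, was at 1.92, 1.68 and 2.35 TPM and then between 4.51 and 6.28 TPM, with a median of 5.10. Groups did not overlap for any of these genes, and their log2 fold changes were 1.24 ± 0.17, 1.31 ± 0.16 and 1.06 ± 0.13 (limma adjusted p = 2.89e-04, 1.57e-04 and 1.33e-04).

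The next enzymes, Idi1 and Fdps, had the largest log2 fold changes of TPM + 1 among the 32 genes, while by ratio of mean TPM Stard4 (13.7) and Cyp51 (10.1) stood above Fdps (9.57). Idi1, on chromosome 13 (8885501 to 8892451, plus strand), encodes the isomerase that makes the allylic isoprenoid unit. It was at 0.291, 0.101 and 0.530 TPM at 0.2 mM, under 1 TPM in every library, and ran from 7.27 through a median of 9.79 to 11.6 TPM at 0.8 mM. Its ratio of mean TPM was 31.5, and it rose by 3.02 ± 0.17 on the log2 scale (SE; limma, adjusted p = 3.89e-07), or by 4.71 with a pseudocount of 0.1 in place of 1. Fdps, on chromosome 3 (89093588 to 89101959, minus strand), joins isoprenoid units into farnesyl diphosphate, the branch point between sterols and other isoprenoids. It was at 7.03, 7.15 and 8.43 TPM and then ran from 61.7 through 72.7 to 82.2 TPM, a ratio of 9.57 between means and a log2 fold change of 3.10 ± 0.10 (limma adjusted p = 1.38e-08). An exon stretch of 26.7% of Fdps is shared with Gm43738 on the same strand, which was listed at 0. At 0.8 mM Fdps alone held 38.2 ± 2.26% of the summed TPM of the 19 synthesis enzymes, and at 0.2 mM it held 17.0 ± 3.37%. Ggps1, which leads away from sterols to geranylgeranyl diphosphate for protein prenylation, was at 4.10, 4.86 and 3.87 TPM and then between 2.61 and 6.36 TPM with a median of 3.88. Its groups overlapped and it did not pass, with a log2 fold change of -0.11 ± 0.21 (limma adjusted p = 0.759).

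The squalene and sterol steps rose as well. Of their 11 genes 9 rose (81.8%) and 2, Lss and Dhcr7, did not pass. The shares over all genes tested were 16.7% that rose and 9.81% that fell. Fdft1, squalene synthase, which commits isoprenoids to sterols, was at 3.31, 1.54 and 2.57 TPM and then ran from 6.53 through 7.97 to 9.19 TPM (log2 fold change 1.38 ± 0.17, limma adjusted p = 1.25e-04). The exons of Fdft1 share 774 bases, 18.3% of its exonic length, with Ctsb on the opposite strand, a cathepsin gene at a mean of 329 TPM, and since use of strand is not stated its level is uncertain. Sqle, squalene epoxidase, a rate-limiting oxidation, was at 0.721, 0.794 and 0.898 TPM and then ran from 2.08 through 2.997 to 3.13 TPM (log2 fold change 1.09 ± 0.13, limma adjusted p = 1.33e-04). In both genes the groups did not overlap.

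Lss, lanosterol synthase, closes the ring, and its result turned on 1 library. It was at 0.153, 0.252 and 0.434 TPM at 0.2 mM, and at 5.10, 1.67, 0.682, 1.60, 0.880 and 0.797 TPM in replicates 1 to 6 at 0.8 mM. Every 0.8 mM library was above every 0.2 mM library, and replicate 1 stood far above the rest. The log2 fold change was 0.97 ± 0.36 and did not pass (limma adjusted p = 0.0714), and without 0.8 mM replicate 1 it was 0.71 and passed (limma adjusted p = 0.0289). It also passed with pseudocounts of 0.1 (0.0242) and 0.5 (0.0482).

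Of the enzymes that trim and rearrange the ring, Cyp51, the lanosterol demethylase on chromosome 5 (4081145 to 4104746, minus strand), changed most. It was at 0.782, 0.606 and 0.727 TPM and then ran from 5.24 through 6.89 to 10.3 TPM, a ratio of 10.1 between means and a log2 fold change of 2.22 ± 0.19 (limma adjusted p = 1.03e-05). Its exons share 166 bases, 3.76% of their length, with Akap9 on the opposite strand, a gene at a mean of 35.6 TPM. Since use of strand is not stated, the level of Cyp51 is uncertain too. Msmo1, the methylsterol oxidase, was at 2.68, 2.48 and 2.55 TPM and then ran from 8.56 through 10.2 to 11.6 TPM (log2 fold change 1.63 ± 0.11, limma adjusted p = 1.69e-06). Cyp51 and Msmo1 were both far apart between the groups, and Msmo1 varied less within them. Its partner enzymes Nsdhl, a decarboxylating dehydrogenase, and Hsd17b7, a ketoreductase, went from means of 0.692 ± 0.169 and 0.337 ± 0.291 TPM to 2.74 ± 0.374 and 2.14 ± 0.709 TPM (SD, n = 3 and 6), and both rose with groups apart (limma adjusted p = 1.09e-04 and 0.00309). Tm7sf2, a reductase of the sterol ring, was listed at 0 in 0.2 mM replicate 1 and at 0.388 and 0.840 TPM in the others, and lay between 1.83 and 4.38 TPM at 0.8 mM (log2 fold change 1.57 ± 0.25, limma adjusted p = 9.27e-04). It shares 12.1% of its exons with Vps51 on the same strand, a gene at a mean of 3.45 TPM.

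Of the last steps, Ebp rose, Sc5d rose less stably and Dhcr7 did not pass. Ebp, the sterol isomerase and at 0.2 mM the most abundant of the 19 enzymes, was at 12.5, 13.3 and 7.27 TPM and then ran from 22.5 through 24.1 to 30.7 TPM (log2 fold change 1.15 ± 0.17, limma adjusted p = 4.39e-04). Sc5d, the desaturase that follows it, was at 0.974, 1.90 and 0.856 TPM and then between 2.20 and 6.51 TPM with a median of 2.94. Sc5d rose by 0.97 ± 0.26 (limma adjusted p = 0.0198), and the call was lost without 0.2 mM replicate 1 (0.0764) or without 0.2 mM replicate 3 (0.0837), and with no filter (0.0576). Dhcr7, the reductase of 7-dehydrocholesterol and so the last enzyme of this branch, was at 0.350, 1.53 and 0.558 TPM and then between 1.35 and 1.84 TPM with a median of 1.51. The groups overlapped through 0.2 mM replicate 2 alone. Dhcr7 did not pass (log2 fold change 0.54 ± 0.19, limma adjusted p = 0.0606), and without 0.2 mM replicate 2 it did (0.81, limma adjusted p = 0.0047), as it did without the variance trend (0.0497). The log2 ratio of Dhcr7 to Sc5d differed by -0.43 between the doses, which did not pass (exact permutation p = 0.167, 0.25 adjusted over 6 pairs).

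**Figure D2:**
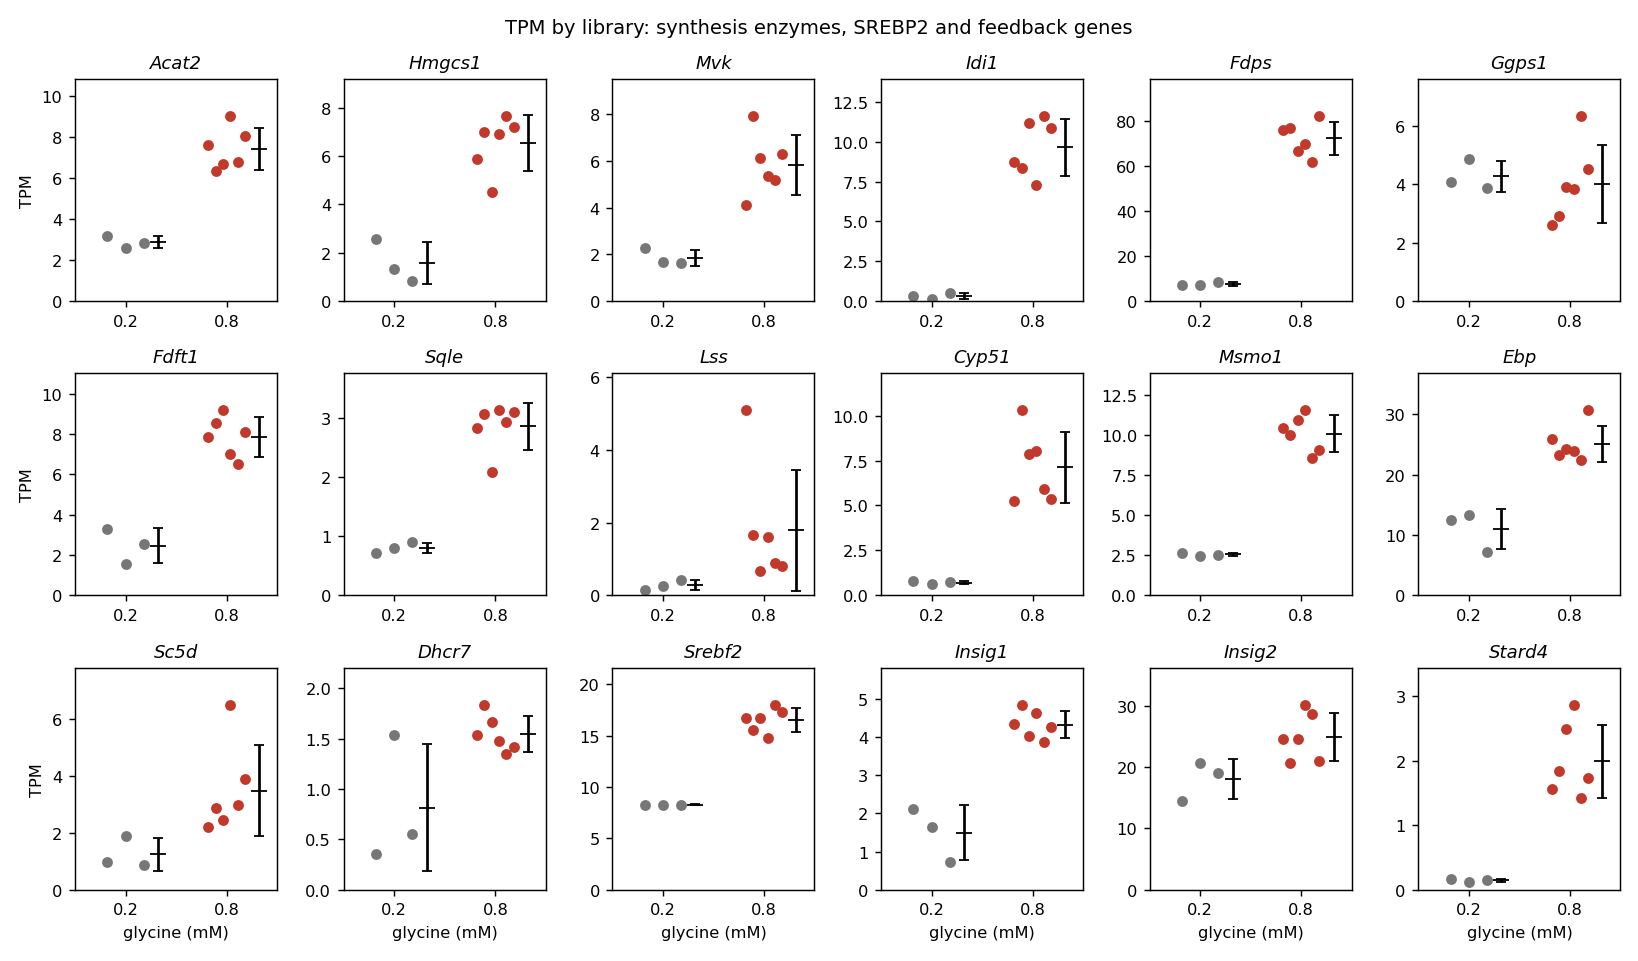
Each panel is 1 of 18 genes and each point a library; TPM runs up from 0, glycine is 0.2 mM for grey points (n = 3) and 0.8 mM for red (n = 6), and black bars give mean ± SD. Fdps rises from about 7.54 to 72.1 TPM on average with no overlap, Ggps1 overlaps, and 1 library of Lss stands at 5.10 TPM above the others.

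The SREBP2 gene and Insig1 rose, Insig2 rose without a stable call, and Scap did not pass. Srebf2, which encodes SREBP2 and lies on chromosome 15 (82147181 to 82205379, plus strand), was at 8.29, 8.21 and 8.29 TPM at 0.2 mM and ran from 14.8 through 16.7 to 18.02 TPM at 0.8 mM. The 0.2 mM libraries were nearly equal, and all 6 others were well above them, with a log2 fold change of 0.92 ± 0.09 (limma adjusted p = 1.86e-05). Insig1, the sterol-regulated INSIG gene, was at 2.12, 1.65 and 0.722 TPM and then ran from 3.88 through 4.29 to 4.85 TPM (log2 fold change 1.13 ± 0.18, limma adjusted p = 6.73e-04). Insig2, its more constant relative, was the more abundant of the pair in every library, at 14.4, 20.7 and 19.1 TPM and then between 20.6 and 30.2 TPM with a median of 24.6. Its groups overlapped.

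Insig2 rose by 0.45 ± 0.15 (limma adjusted p = 0.0457), and the call was not stable. It was lost without 0.2 mM replicate 1 (0.203) or 3 (0.0753) and without 0.8 mM replicate 1 (0.0679), 3 (0.071), 4 (0.0746) or 5 (0.0796), and it was lost with median-ratio scaling (0.107) and quantile normalization (0.121), with no filter (0.105), without ribosomal RNA genes (0.0548) and without the variance trend (0.0626). The difference in change between Insig1 and Insig2 was 0.69 in their log2 ratio and did not pass (exact permutation p = 0.0952, 0.19 adjusted over 6 pairs). Scap, the escort, was at 4.82, 2.53 and 1.09 TPM and then between 1.89 and 4.62 TPM with a median of 2.87. The 0.2 mM libraries of Scap spanned those at 0.8 mM, and it did not pass (log2 fold change 0.16 ± 0.30, limma adjusted p = 0.739). Srebf2 against Scap gave a difference of 0.75 that did not pass (exact permutation p = 0.0952, 0.19 adjusted).

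Of the genes of release, transfer, turnover and esterification, 1 rose, 3 fell and 1 did not pass. Stard4, a soluble sterol carrier, was at 0.166, 0.115 and 0.156 TPM and then ran from 1.43 through 1.79 to 2.87 TPM, a ratio of 13.7 between means (log2 fold change 1.36 ± 0.17, limma adjusted p = 1.61e-04). Npc1, the lysosomal membrane protein that passes cholesterol out, was at 3.68, 3.00 and 4.41 TPM and then ran from 1.54 through 1.92 to 2.17 TPM, and it fell by 0.68 ± 0.14 on the log2 scale (limma adjusted p = 0.00379). The call was kept in 18 of 19 alternative settings, with a largest limma adjusted p of 0.0537. Npc1 shares 511 exonic bases, 4.5% of its exonic length, with Rmc1 on the opposite strand, a gene at a mean of 4.00 TPM. Npc2, the soluble lysosomal protein that hands cholesterol to NPC1, was the most abundant of the 32 genes at both doses, at 163, 157 and 194 TPM and then between 120 and 149.6 TPM with a median of 133. Npc1 and Npc2 both stood lower in every 0.8 mM library than in any 0.2 mM library.

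Npc2 fell by 0.36 ± 0.09 (limma adjusted p = 0.0122), and the call was lost without 0.2 mM replicate 3 (0.061). The change of Npc1 differed from that of Npc2 by -0.32 in their log2 ratio (exact permutation p = 0.0238, the smallest that the 84 splits allow, and 0.143 adjusted over 6 pairs). Soat1, which esterifies cholesterol for storage in lipid droplets, was at 22.7, 14.6 and 18.7 TPM and then between 11.4 and 15.4 TPM with a median of 12.5. Its groups overlapped because 0.2 mM replicate 2 lay below 0.8 mM replicate 4. Soat1 fell by 0.50 ± 0.14 (limma adjusted p = 0.0239), and the call was lost without 0.2 mM replicate 1 (0.121) or without 0.2 mM replicate 3 (0.0722), and with no filter (0.0566). Mylip, a ubiquitin ligase that removes lipoprotein receptors and is itself an LXR target, was at 0.655, 0.744 and 0.627 TPM and then between 0.968 and 1.31 TPM. Its groups did not overlap, and it did not pass (log2 fold change 0.32 ± 0.13, limma adjusted p = 0.0839), though it did without the variance trend (0.0227).

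The export pumps were lower at 0.8 mM, and the LXR genes themselves did not pass. Abca1, the pump that loads cholesterol onto apolipoproteins, lies on chromosome 4 (53030787 to 53159895, minus strand). It was at 2.90, 2.85 and 2.77 TPM and then ran from 1.29 through 1.78 to 2.04 TPM. Abcg1, which passes cholesterol on to formed lipoprotein particles, was at 2.71, 2.53 and 2.96 TPM and then ran from 1.63 through 1.85 to 2.23 TPM. In neither gene did the groups overlap, but both changes were small and close to the threshold.

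Abca1 fell by 0.50 ± 0.14 (limma adjusted p = 0.0204), and the call was lost without 0.2 mM replicate 1 (0.0688), 2 (0.0645) or 3 (0.0557). Abcg1 fell by 0.38 ± 0.12 (limma adjusted p = 0.0417), and the call was lost without 0.2 mM replicate 1 (0.104), 2 (0.0739) or 3 (0.14) and without 0.8 mM replicate 1 (0.0646), 2 (0.0515), 3 (0.0751), 4 (0.0702) or 6 (0.0623), and with no filter (0.0632). Between these pumps the change differed by -0.12 in the log2 ratio, which did not pass (exact permutation p = 0.286, 0.343 adjusted over 6 pairs). Nr1h2, the widely expressed LXR beta, was at 9.65, 8.33 and 8.15 TPM and then between 5.62 and 8.82 TPM with a median of 7.88 (log2 fold change -0.19 ± 0.14, limma adjusted p = 0.356). Nr1h3, LXR alpha, which is abundant in macrophages and liver, was at 1.78, 1.55 and 1.41 TPM and then between 1.13 and 2.47 TPM with a median of 1.66 (log2 fold change 0.03 ± 0.18, limma adjusted p = 0.929), and its sign turned with median-ratio scaling (-0.0249) and quantile normalization (-0.0481). The log2 ratio of Nr1h3 to Nr1h2 differed by 0.22 (exact permutation p = 0.357, also after adjustment). The macrophage markers Csf1r and Ptprc, given because macrophages express these pumps, were at 5.73 ± 0.558 and 4.30 ± 2.38 TPM at 0.2 mM and at 5.18 ± 0.600 and 3.61 ± 1.62 TPM at 0.8 mM (SD, n = 3 and 6) and did not pass, while Cd68 fell from 182 ± 13.6 to 57.6 ± 2.38 TPM and Lyz2 rose from 588 ± 30.6 to 1013 ± 153 TPM. Their part in the change of the pumps was not tested.

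**Figure D3:**
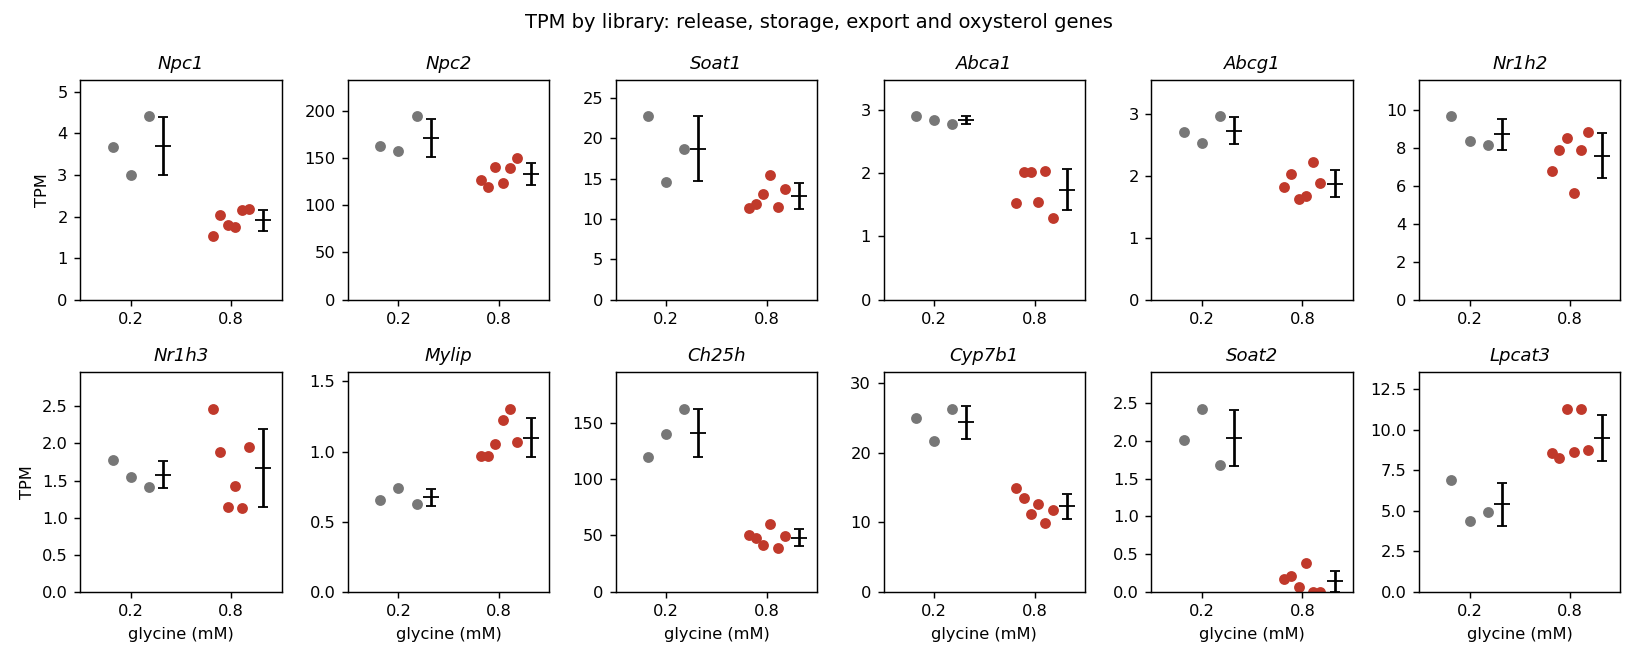
Panels show 12 genes, with TPM from 0 upward and 1 point per library, grey for 0.2 mM (n = 3) and red for 0.8 mM glycine (n = 6); black bars mark mean ± SD. Npc1, Npc2, Abca1 and Abcg1 lie lower at 0.8 mM with no overlap, and Ch25h falls from 140.5 to 48.1 TPM on average.

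Summed over each role, the synthesis groups and the control group were higher and the other groups lower at 0.8 mM. The 8 mevalonate genes summed to between 22.6 and 25.2 TPM at 0.2 mM and between 113 and 132 TPM at 0.8 mM, a ratio of 5.09 between means. Fdps supplied much of the mevalonate sum at 0.8 mM, and without it the other 7 genes gave a ratio of 2.995. The 11 squalene and sterol genes summed to between 17.4 and 24.1 TPM and between 58.3 and 72.9 TPM, a ratio of 3.18. SREBP2 and its control genes summed to between 29.2 and 33.1 TPM and between 44.3 and 52.6 TPM, a ratio of 1.59. The release and storage group, in which Npc2 held most of the sum, lay between 175.5 and 218 TPM and between 136 and 168 TPM, and the LXR and export group between 15.3 and 17.0 TPM and between 10.3 and 14.0 TPM. The sums overlapped in none of the groups, and no p is given for them because the members were chosen with results known.

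**Figure D4:**
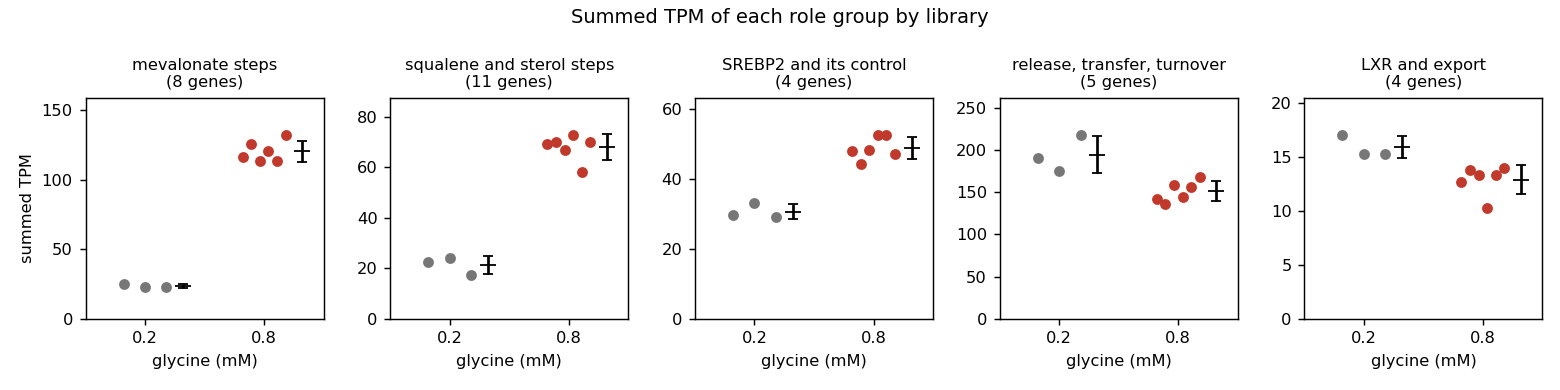
Panels show the summed TPM of each role from 0 upward, 1 point per library, grey for 0.2 mM (n = 3) and red for 0.8 mM glycine (n = 6), with mean ± SD in black. The mevalonate sum goes from 23.6 ± 1.35 to 120.3 ± 7.54 TPM and the squalene and sterol sum from 21.4 ± 3.52 to 67.9 ± 5.11 TPM, while the last pair of groups goes down.

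Further genes of the pathway came from lists of 68 genes with a row, of which 58 passed the filter. Of the 58, 7 rose and 7 fell, or 12.1% each, and 44 did not pass. Over all genes tested 16.7% rose and 9.81% fell. The median log2 fold change of the 58 was 0.01. Of 10 genes that supply acetyl-CoA or electrons to the enzymes or bind sterols, 5 rose and 0 fell. Tmem97, a sterol-regulated membrane protein that binds NPC1, rose from 8.47 ± 0.297 to 17.1 ± 1.00 TPM (SD, n = 3 and 6, limma adjusted p = 1.13e-05). Cyb5r3 and Cyb5b, which pass electrons by way of cytochrome b5, went up from 24.0 ± 1.63 to 35.7 ± 1.96 TPM (limma adjusted p = 2.75e-04) and 2.87 ± 0.459 to 5.10 ± 0.349 TPM (limma adjusted p = 0.00135). Named after their values were seen, the others that rose were Slc25a1, the citrate carrier, by 0.61 and Acly, which splits citrate into acetyl-CoA, by 0.64. The call of Acly was lost without 0.2 mM replicate 2 (limma adjusted p = 0.0639). Among those that did not pass, also named after their values were seen, were the electron carriers Cyb5a and Por. Cyb5a was at 259 ± 19.2 and 279 ± 14.3 TPM (limma adjusted p = 0.2385). Por was at 9.41 ± 1.75 and 7.86 ± 1.57 TPM (limma adjusted p = 0.335).

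Of 14 genes that use isoprenoids for other ends, 1 rose (7.14%), 0 fell and 13 did not pass, beside 16.7% and 9.81% of all genes tested. The 1 that rose was Pdss1, which starts the tail of coenzyme Q, from 0.561 ± 0.253 to 2.06 ± 0.693 TPM (limma adjusted p = 0.00757). Pdss1 reached the filter through the 0.8 mM libraries alone, so the filter itself picked it for higher values there. Dhdds, of dolichol synthesis, was at 3.40 ± 0.506 and 5.46 ± 1.75 TPM, and Coq2, of coenzyme Q synthesis, at 14.1 ± 0.932 and 11.8 ± 1.90 TPM, without passing (limma adjusted p = 0.0805 and 0.177). Of 9 tested genes that process SREBP or degrade its partners, 0 rose and 0 fell by limma, with 2 of them (Rnf145 and Srebf1) under an unadjusted p of 0.05. Srebf1, the relative of SREBP2 that serves fatty acid synthesis and is also an LXR target, was at 2.33 ± 1.24 and 3.93 ± 1.28 TPM (limma adjusted p = 0.131). Rnf145, a sterol-responsive ubiquitin ligase, was at 6.95 ± 2.60 and 9.82 ± 1.78 TPM (limma adjusted p = 0.113), and Erlin2, a scaffold of sterol-linked degradation in the endoplasmic reticulum, at 2.66 ± 0.367 and 2.00 ± 0.479 TPM (limma adjusted p = 0.212).

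Among 14 tested genes of other uptake and sterol transfer, 0 rose, 2 fell (14.3%) and 12 did not pass, beside 16.7% and 9.81% of all genes tested. Cd36, a scavenger receptor for fatty acids and oxidised lipoprotein, fell from 16.8 ± 2.07 to 5.79 ± 1.10 TPM (limma adjusted p = 4.23e-05), and Osbpl2, an oxysterol-binding transfer protein, from 3.43 ± 1.01 to 1.62 ± 0.299 TPM (limma adjusted p = 0.00819). Scarb1, the receptor for high-density lipoprotein, was at 2.55 ± 0.592 and 5.36 ± 2.11 TPM, short of the threshold (limma adjusted p = 0.0611).

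Of 11 tested genes of LXR partners and targets, oxysterols and esterification, 5 fell (45.5%), 1 rose (9.09%) and 5 did not pass. Over all genes tested 9.81% fell and 16.7% rose. Ch25h, which makes 25-hydroxycholesterol, an oxysterol known to bind INSIG and to activate LXR, fell from 140.5 ± 21.4 to 48.1 ± 7.30 TPM (limma adjusted p = 1.06e-05). Soat2, the second sterol acyltransferase, fell from 2.04 ± 0.376 to 0.137 ± 0.145 TPM (limma adjusted p = 6.71e-05). It reached the filter through the 0.2 mM libraries alone, so the filter itself picked it for higher values there. Cyp7b1, which breaks oxysterols down, fell from 24.3 ± 2.39 to 12.3 ± 1.78 TPM (limma adjusted p = 2.38e-04). Named after their values were seen, the others that fell were Pltp, a phospholipid transfer protein and LXR target, by 0.91 on the log2 scale, and Smpdl3a, another LXR target, by 0.55. The call of Smpdl3a was lost without 0.2 mM replicate 2 (limma adjusted p = 0.0778) or 3 (0.0729). The 1 that rose was Lpcat3, an LXR target that remodels phospholipids, from 5.39 ± 1.32 to 9.47 ± 1.42 TPM (limma adjusted p = 0.00469).

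Across the members the groups did not overlap for 21 of 32 with the higher values at 0.8 mM and for 4 with the lower, beside 17.6% and 10.6% of all genes tested. The 9 members that reached the filter through the 0.8 mM libraries alone were all among the 21. Spread between libraries at 0.8 mM, as the SD in percent of the mean, was smallest for Srebf2 at 7.17% and Insig1 at 8.37%, and largest for Lss at 93.7%, Sc5d at 45.5% and Tm7sf2 at 33.9%. By level at 0.8 mM, Npc2, Fdps, Ebp and Insig2 led the 32 genes, and at 0.2 mM Npc2, Soat1, Insig2 and Ebp did. The neighbours Ebp and Insig2 at 0.8 mM (25.1 ± 2.98 and 25.0 ± 3.92 TPM) and Soat1 and Insig2 at 0.2 mM (18.7 ± 4.03 and 18.1 ± 3.25 TPM) differed by less than their spread.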

How the data were processed

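RNA-seq values came from 9 libraries of mdx primary myoblasts. The authors deposited TPM per gene, which divides reads by gene length and brings all libraries to 1 total. Per the submitters' processing notes, HISAT2 2.0.5, StringTie 1.3.3 and DESeq2 were among the tools and mm10 was the build. Tool order, settings, gene annotation and strandedness were not stated in those notes. TPM keeps no read numbers, so precision was taken from the spread between libraries, and no pair of libraries was identical.

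Because TPM are not counts, log2(TPM + 1) was tested with limma 3.58.1 in R 4.3.3 (lmFit, eBayes with a trend, two-sided) over all 9 libraries and the 10049 genes with at least 1 TPM in at least 3 libraries, with Benjamini-Hochberg adjustment over all of them and a threshold of 0.05. Fold changes understate those of low genes. Pairs of members were compared by a two-sided exact permutation test of their log2 ratio over 84 splits. Its smallest p, 0.0238, becomes 0.143 over 6 pairs if 1 pair alone reaches it, so a pair that did not pass may still differ. Positions came from GENCODE M21 on GRCm38, which mm10 denotes, with 53620 of 53715 IDs matched without version, and promoters from RefSeq on GRCm38.p6. The promoters printed were chosen after motif matches were seen. Of the listed genes, Faxdc2 matched no symbol. The members and lists were chosen with earlier results of these data known. The rule for names took all 32 members, up to 3 genes with the smallest p of each further list and genes called against the list's majority. On simulated data for this comparison (10049 genes), the test recovered 53.7% of genes changed by 1.5-fold, 85.4% by 2-fold and 97.9% by 4-fold, and called 0.0731% of unchanged genes. Changes were simulated only in genes above about 5 TPM at 0.2 mM, and most of the 32 members lay below that level. The recovery rates do not cover such low genes. Alternatives were other pseudocounts, filters, scalings and variance models, TPM without ribosomal RNA genes, each library left out, and the library number as a block. Figures used matplotlib 3.10.9.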

Additional observations from a re-analysis of the deposited data

Results flagged for a closer look

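Among the 32 genes and the 5 summed role groups, 3 of 37 sets of 6 values at 0.8 mM glycine held a library set apart by a gap above Dixon's critical share of the range, which chance alone meets in about 1 in 20 sets. For Lss the highest library, replicate 1, was at 5.10 TPM beside a median of 1.24 TPM. For Sqle the lowest library, replicate 3, was at 2.08 TPM beside a median of 2.997 TPM, still above every 0.2 mM library. For the summed TPM of the LXR and export genes the lowest library, replicate 4, was at 10.3 TPM beside a median of 13.3 TPM, and it held the lowest Nr1h2 value, 5.62 TPM.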

How the results depend on the processing

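Of the 32 genes, 20 kept their direction and their side of the threshold under every alternative run for them, 20 at most. Among the enzymes that rose, Sc5d was the exception. Direction turned for Scap (-0.2088 without 0.2 mM replicate 3, in a range from -0.2088 to 0.5292 over left-out libraries) and for Nr1h3 (-0.0249 with median-ratio scaling, -0.0481 with quantile normalization, -0.0198 without 0.2 mM replicate 3, -0.0519 without 0.8 mM replicate 1 and -0.0053 without 0.8 mM replicate 6, in a range from -0.0519 to 0.0887 over left-out libraries and up to 0.1106 over all alternatives), neither of which passed in any of them. With a stricter filter, a mean of 5 TPM or more, which leaves fewer genes to test, 9 of the 32 rose and 2 fell, 7 synthesis enzymes and 2 of the other members rose, and 4 further pathway genes rose. With no filter 3 members fell, all of them outside synthesis. With each library left out in turn, between 1 and 5 members fell, the fewest without 0.2 mM replicate 3, and between 18 and 21 rose. Libraries 1 to 3 of each group gave 3 members that fell, and with the library number as a replicate block 1 fell; over all genes the block gave 1117 that rose and 596 that fell. Same-numbered libraries correlated by 0.02, 0.03 and 0.08 in their deviations from the group means. Differently numbered ones correlated by between -0.10 and 0.08. The 0.2 mM libraries 1 and 2 deviated most like other numbers, and library 3 most like its own. Such few and small values cannot tell whether libraries were paired. None of the 6 pairs of members passed in any alternative, with adjusted exact permutation p from 0.143 to 0.571. With a 0.2 mM library left out the exact test cannot reach 0.05. With all 9 libraries its smallest p, 0.0238, becomes 0.143 after adjustment if 1 pair alone reaches it, so a single pair could not pass. With a pseudocount of 0.1 the log2 fold change of 6 genes that rose grew by over 1.5 times: Stard4 (3.06), Hsd17b7 (2.59), Tm7sf2 (3.12), Nsdhl (1.85), Sqle (1.70) and Idi1 (4.71). It grew as much for 4 that had not passed, Lss (2.03), Dhcr7 (1.06), Mylip (0.62) and Scap (0.27).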
